A study of Mus musculus with 1 sample.

Results

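The S100 calcium-binding proteins were measured through the UMI counts of 8 genes of the family, S100a1, S100a4, S100a6, S100a8, S100a9, S100a10, S100a11 and S100a13, out of 32285 genes in the count table. The 8 genes were listed by name, all 8 were in the table, and all 8 had UMIs in the kept cells, from 815 UMIs for S100a8 to 729255 for S100a6. A UMI (unique molecular identifier) tags an RNA molecule at its 3′ end, so the levels of different S100 genes were compared without scaling by gene length. The study grew tumors from MC38 shNTC control cells and from MC38 shv0a1 cells, in which Atp6v0a1, a subunit of the vacuolar proton pump, is knocked down, to follow how tumor cells shape the cells around them. MC38 is a mouse colon carcinoma line, and the hosts were C57BL/6J mice. The labels give no age or sex, and the study's methods describe its C57BL/6 J mice as females bought at 4 to 6 weeks of age. The library described here is an MC38 tumor library of genotype WT, taken as the control pool because its label names no shRNA, and the knockdown pool was not analysed. Red blood cells were lysed and 5 tumors were mixed in equal proportions into 1 library, so no cell can be traced to a tumor, there are no replicates and no test was run. All intervals are exact 95% intervals and cover counting error only.

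S100 proteins are small proteins of vertebrates that mostly work as dimers and carry EF-hand loops that bind calcium. On binding calcium most of them open a surface that grips a target protein, such as an annexin or a myosin. S100a8 and S100a9 form calprotectin, which fills the cytoplasm of neutrophils, binds zinc and manganese, and acts on Tlr4 and on Ager (the receptor RAGE) once released, and S100a4 is known for cell motility and metastasis.

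The library held 5307 called cells with 106631000 UMIs, with a median of 9248 and at most 231902 per cell. After removal of 667 cells above 20% mitochondrial UMIs and of 197 likely doublets, 4443 cells were kept. Of these, 3880 fell into 16 groups named from fixed marker lists, with "-like" added to each cell type name, and 563 shallow cells (median 1265 UMIs) stayed unnamed. No S100 gene was used to cluster the cells, so no group was defined by its S100 values. Many of the other genes that serve as background in the comparisons were used to cluster.

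The label calls the sample epithelial cells of MC38, and the data did not bear out the epithelial part in the cells that S100a4 and S100a6 marked most strongly. Of 8 genes listed for MC38 cells, 2 were raised in the 1847 cells of the largest lineage: Shisal2b at 216 CPM and Rhox5 at 696 CPM, where CPM is the group's UMIs of a gene per 1000000 UMIs of the group. The epithelial genes Krt8 (0.091 CPM), Epcam (0.013 CPM) and Cdh1 (0.169 CPM) were close to 0 there and Krt18 had 0 UMIs. These cells are therefore called Rhox5-high cells. They divided into 588 Col3a1-high cells and 1259 Col3a1-low cells. The Col3a1-low cells formed a group of 982 cells and a group of 277 cells that the plan called cycling and non-cycling. The summed level of 7 proliferation genes was 1471 CPM in the 982 cells and 1392 CPM in the 277 cells, whereas the median mitochondrial share was 3.31% and 0.170%, so they are called mt-high and mt-low Col3a1-low cells. The cell cycle genes Rrm2, Top2a, Fbxo5 and Ccnd1 were nonetheless among the 10 leading genes of the 982 cells, and none of them led the 277 cells.

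The host groups were shallower, and the depth behind each S100 value differed widely. The 49 neutrophil-like cells had a median of 710 UMIs and all 9 neutrophil markers raised, though 28 of the 49 held a UMI of any of them. The 245 monocyte-like cells had a median of 4487 UMIs, the 117 T-like cells 4975 UMIs and the 43 fibroblast-like cells 5169 UMIs. The 1291 macrophage-like cells (median 10078 UMIs) included 99 cells of a Cxcl9 state, 190 proliferating and 748 other cells. The Cxcl9 state had 6 of 7 genes of its list raised, but its leading genes were interferon-induced, among them Ifit2, Slfn5 and Ifi204. The 48 DC-like cells had all 8 genes of the dendritic cell list raised, while Plac8, a gene of the monocyte list, was among their 10 leading genes and no gene of the dendritic cell list was. Rhox5-high cells were deepest, with a median of 38130 UMIs.

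Taken as a share of all UMIs, the 8 S100 genes were heaviest in neutrophil-like cells and lightest in macrophage-like cells. They made up 4.86% of the UMIs of neutrophil-like cells, most of it from S100a8, S100a9 and S100a6. In Col3a1-high cells they made up 1.78%, with S100a6 and S100a4 as the main genes. T-like cells gave 0.828%, monocyte-like cells 0.663% and macrophage-like cells 0.197%. The bars of the 8 genes by group show that the mixture differed as well as the sum.

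**Figure D1:**
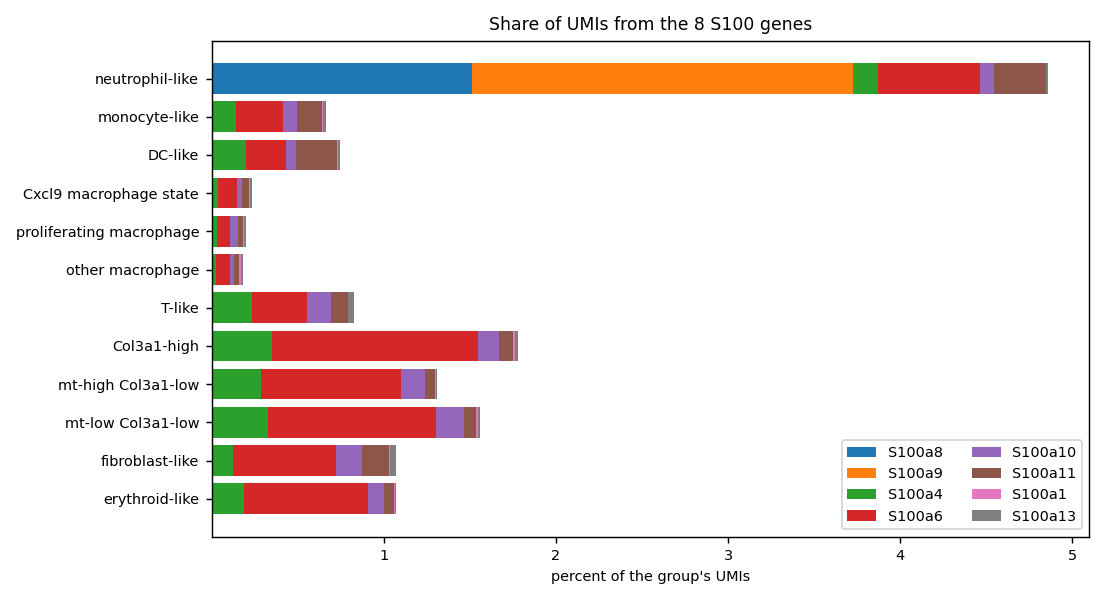
Share of each group's UMIs (percent, horizontal axis) that came from the 8 S100 genes, stacked by gene. S100a8 and S100a9 appear in neutrophil-like cells, where the sum is 4.86%, and S100a6 is the widest part in every other group drawn except DC-like cells.

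All 8 members lie on mouse chromosome 3 in 2 blocks. In the GRCm38 build, 6 of the 8 lie within 184.7 kb, and S100a11 and S100a10 lie 2824.8 kb further on. Neighbors in the block did not share 1 pattern: S100a8 and S100a9 were highest in neutrophil-like cells, S100a4 and S100a6 in Col3a1-high cells, and the facing genes S100a1 and S100a13 had their highest levels in Col3a1-high and T-like cells. The promoter table of RefSeq (build GRCm38.p6, 250 bases before to 50 bases after each start) held 7 of the 8 members.

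S100a8 and S100a9 were the neutrophil genes of the family. S100a8 (ENSMUSG00000056054, chromosome 3, 90668978 to 90670035) was at 15142 CPM (14027 to 16322) in neutrophil-like cells. S100a9 (ENSMUSG00000056071, chromosome 3, 90692632 to 90695721, on the opposite strand) was at 22113 CPM (20761 to 23530) in the same cells. The next group in the order, the 25 lung epithelium-like cells, held S100a8 at 681 CPM and S100a9 at 996 CPM, and its intervals lay apart from those of neutrophil-like cells for both genes. Both promoters are shown because the 2 genes moved together over the cell groups, with S100a4 and S100a6 as neighbors that moved together in another way. Capitals mark matches to TATAAA and to TTGCNNAA, a form of the C/EBP motif, each searched on both strands, and the 2 motifs did not overlap.
S100a8, chr3:90668821-90669120, plus strand: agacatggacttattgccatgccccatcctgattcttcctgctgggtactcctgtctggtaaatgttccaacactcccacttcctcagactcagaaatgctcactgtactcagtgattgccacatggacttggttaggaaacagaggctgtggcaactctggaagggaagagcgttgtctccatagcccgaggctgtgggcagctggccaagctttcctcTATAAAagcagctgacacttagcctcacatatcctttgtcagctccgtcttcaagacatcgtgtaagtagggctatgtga
S100a9, chr3:90695672-90695971, minus strand: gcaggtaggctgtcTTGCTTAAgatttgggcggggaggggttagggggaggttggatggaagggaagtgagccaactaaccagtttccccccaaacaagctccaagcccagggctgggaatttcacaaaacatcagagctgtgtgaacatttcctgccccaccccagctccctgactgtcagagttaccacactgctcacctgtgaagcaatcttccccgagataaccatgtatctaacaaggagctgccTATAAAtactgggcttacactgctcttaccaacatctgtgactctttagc
S100a4, chr3:90603520-90603819, plus strand: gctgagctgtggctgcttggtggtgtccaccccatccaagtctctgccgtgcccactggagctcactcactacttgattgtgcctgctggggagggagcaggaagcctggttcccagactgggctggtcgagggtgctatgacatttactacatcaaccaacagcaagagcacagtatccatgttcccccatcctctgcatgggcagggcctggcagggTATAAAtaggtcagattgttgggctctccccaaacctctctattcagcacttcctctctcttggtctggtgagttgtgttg
S100a6, chr3:90612644-90612943, plus strand: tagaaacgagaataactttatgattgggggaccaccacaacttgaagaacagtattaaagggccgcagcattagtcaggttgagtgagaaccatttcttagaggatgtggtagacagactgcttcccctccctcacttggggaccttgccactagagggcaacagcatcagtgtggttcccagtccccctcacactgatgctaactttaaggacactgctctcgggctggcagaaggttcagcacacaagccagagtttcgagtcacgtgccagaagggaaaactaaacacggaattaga
TATAAA was present in 3 of the 7 S100 promoters and in 13.6% of all 32851 promoters of the table. Its first base lay 31 bases before the start in S100a4, 30 bases before it in S100a8 and at the start listed for S100a9. These are the starts of the RefSeq table, and the S100a8 start lies 93 bases inside the gene positions given above, so its TATAAA lies inside them as well. A match on the gene's strand that began 20 to 40 bases before the start was present in 1.99% of all promoters. TTGCNNAA was present in 1 of the 7, S100a9, 236 bases before the start, and in 10.8% of all promoters. A match describes the letters of the window and shows no binding.

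Outside neutrophil-like cells, S100a8 and S100a9 UMIs sat in a minority of the cells of each group. In the 25 lung epithelium-like cells 5 held either gene, with 13 S100a8 and 19 S100a9 UMIs in the group. Of the 30 endothelial-like cells 5 held either gene, at 67.1 CPM (24.6 to 146) for S100a8 and 112 CPM (53.7 to 206) for S100a9. Monocyte-like cells held 33 S100a8 UMIs, or 24.1 CPM (16.6 to 33.9), and 24 of them came from 1 cell. That cell also held 12 of the group's 14 S100a9 UMIs. In DC-like cells 1 cell held all 15 S100a8 and all 12 S100a9 UMIs. Macrophage-like cells held 29 S100a8 UMIs in 18 cells and 3 S100a9 UMIs, and no cell of them held both. T-like, fibroblast-like and pericyte-like cells, the Cxcl9 state and proliferating macrophages held 0 UMIs of either gene. For T-like cells 0 UMIs allow an S100a8 level of up to 4.09 CPM, and for proliferating macrophages up to 1.14 CPM. All Rhox5-high cells together held 25 S100a8 and 16 S100a9 UMIs among 76724457 UMIs.

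The pair was detected in about as many neutrophil-like cells at full depth as after thinning. S100a8 was found in 26 of 49 neutrophil-like cells (53.1%) and S100a9 in 24 of 49. Erythroid-like cells, with a similar median depth (738 against 710 UMIs), gave S100a8 in 1 of 170 cells (0.588%) and S100a9 in 0 of 170. Of these 170 cells 59 held a UMI of the erythroid list, and neither S100 gene was found in the 59. With every cell thinned to 500 UMIs the neutrophil-like shares were 51.0% for S100a8 and 46.9% for S100a9. The share in neutrophil-like cells was thus far above the erythroid-like share, and 22 of the 49 cells held neither gene.

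S100a8 and S100a9 were unevenly spread within the neutrophil-like group. Just 4 cells, with 1723 to 3168 UMIs and at least 10 UMIs of neutrophil markers each, held 412 of the 682 S100a8 UMIs and 623 of the 996 S100a9 UMIs. In these 4 cells S100a8 reached 39332 CPM and S100a9 59475 CPM. A further 14 cells with a UMI of Ngp, a granule gene of immature neutrophils, were shallow (median 648.5 UMIs) and held S100a8 at 26651 CPM and S100a9 at 36876 CPM. The remaining 31 cells held S100a8 at 985 CPM and S100a9 at 1340 CPM. The S100a9 to S100a8 ratio over the group was 1.46 (1.32 to 1.61), and 23 cells held both genes. S100a11 followed the 4 deep cells only, with 9737 CPM there and 1414 CPM in the Ngp cells. The mast cell genes Mcpt1 and Mcpt2 and the acute-phase gene Saa3 were among the 10 leading genes of the group, and their part in its S100 levels was not tested.

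**Figure D2:**
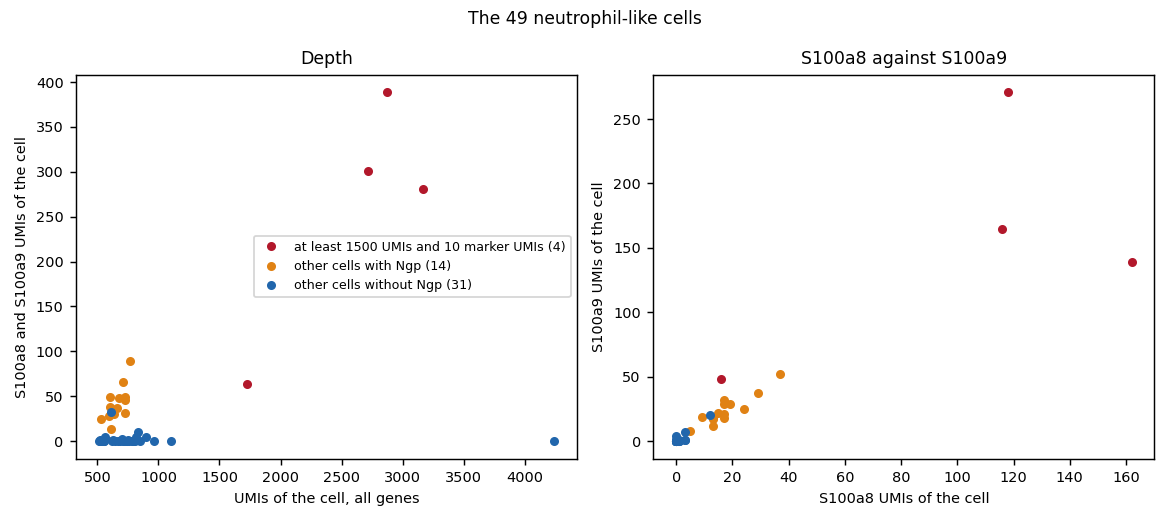
UMIs of S100a8 and S100a9 in each of the 49 neutrophil-like cells, against all UMIs of the cell (left) and against each other (right), 1 point per cell. The 4 red cells hold 412 of 682 S100a8 UMIs, the 14 orange cells hold Ngp, and 22 cells lie at 0 for both genes.

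S100a4 and S100a6 marked the Rhox5-high cells. S100a4 (ENSMUSG00000001020, chromosome 3, 90603771 to 90606045), a partner of nonmuscle myosin known for cell motility, was at 3477 CPM (3448 to 3506) in Col3a1-high cells. Its level was 3263 CPM in mt-low and 2861 CPM in mt-high Col3a1-low cells, and the intervals of these 3 groups lay apart. T-like cells came next with 2340 CPM (2230 to 2453), then DC-like cells with 1923 CPM. Erythroid-like (1859 CPM), neutrophil-like (1465 CPM) and monocyte-like cells (1372 CPM) followed, with overlap between neighbors in the order. The lowest S100a4 level was in other macrophages, at 255 CPM (244 to 267).

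S100a6 (ENSMUSG00000001025, chromosome 3, 90612882 to 90624181), or calcyclin, a gene known for its rise in dividing cells, was the most abundant member with 729255 UMIs in the kept cells. It was at 12008 CPM in Col3a1-high, 9730 CPM in mt-low and 8156 CPM in mt-high Col3a1-low cells. The following levels were 7213 CPM in erythroid-like, 5998 CPM in fibroblast-like and 5906 CPM in neutrophil-like cells, with overlap between the last pair. The erythroid-like level mixed 59 cells with a UMI of the erythroid list (4308 CPM) and 111 cells without (9693 CPM). T-like cells gave 3182 CPM and monocyte-like cells 2738 CPM. Macrophage-like cells had the lowest S100a6 level of the main groups, at 824 CPM, and proliferating macrophages (768 CPM) did not differ from other macrophages (777 CPM) beyond counting error.

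**Figure D3:**
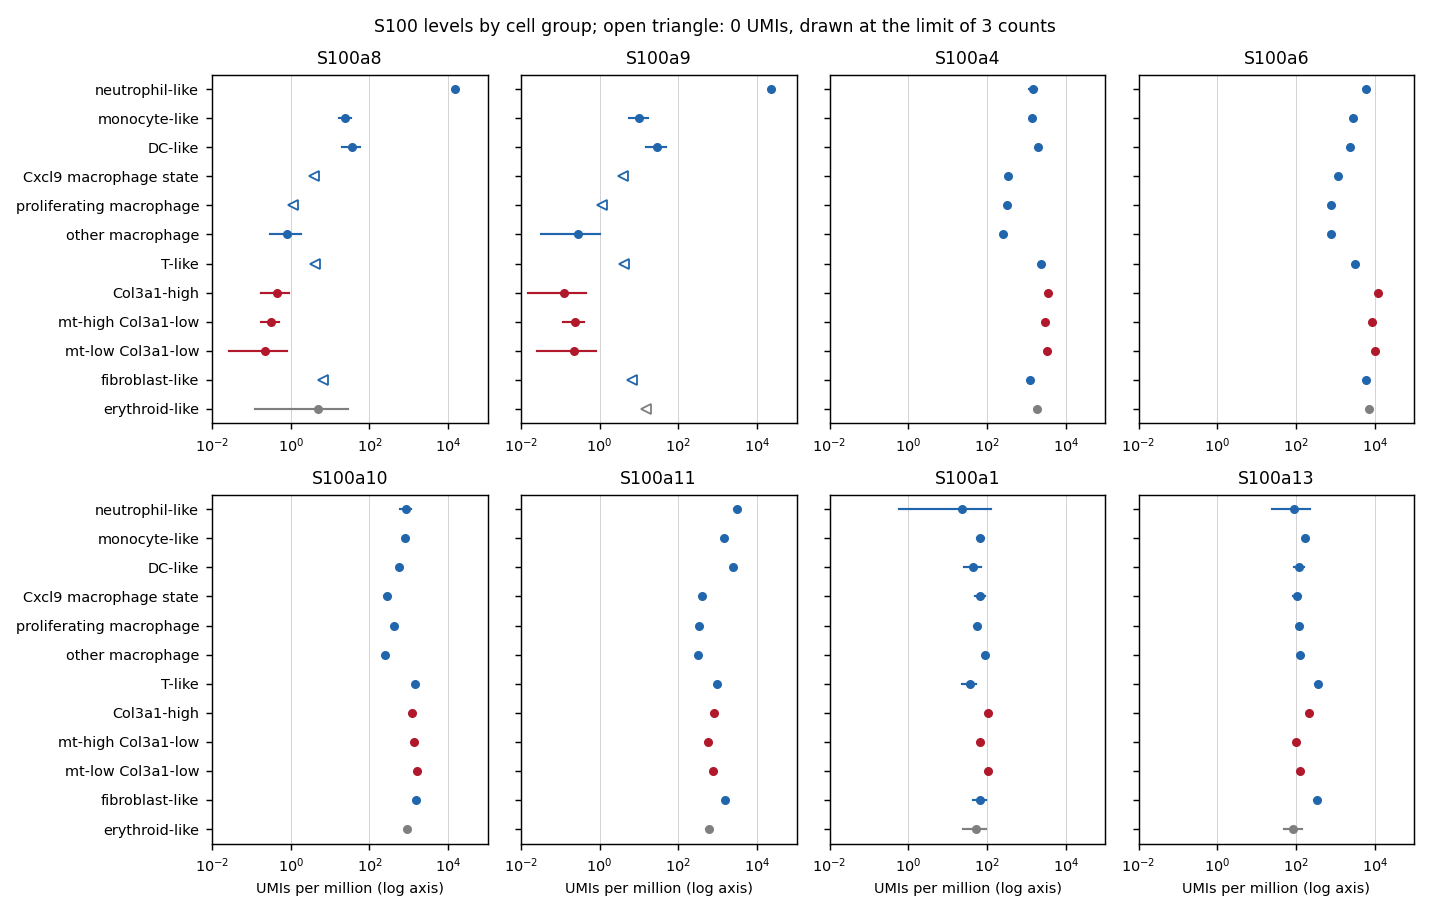
Level of each S100 gene (UMIs per 1000000 UMIs of the group, log axis) in 12 cell groups, with exact 95% intervals, red for Rhox5-high and gray for erythroid-like cells. S100a8 and S100a9 span from 22113 CPM in neutrophil-like cells to 0 UMIs (open triangles), while S100a1 stays between 22.2 and 106 CPM.

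S100a10 and S100a11 are annexin partners, and their levels ordered the cells differently. S100a10 (ENSMUSG00000041959, chromosome 3, 93555080 to 93564643), which lacks working calcium sites and pairs with annexin A2, was highest in mt-low Col3a1-low cells at 1641 CPM. Fibroblast-like (1517 CPM), T-like (1423 CPM) and mt-high Col3a1-low cells (1352 CPM) followed with overlapping neighbors. Its lowest level was 254 CPM in other macrophages. S100a11 (ENSMUSG00000027907, chromosome 3, 93520488 to 93526287), a partner of annexin A1, was highest in neutrophil-like cells at 2997 CPM (2513 to 3548). That rank rested on 4 cells with 102 of the 135 S100a11 UMIs, and the other 45 cells were at 955 CPM (657 to 1341). Pericyte-like (2547 CPM) and DC-like cells (2419 CPM) came next, and all 3 intervals overlapped in that order. Unlike S100a4 and S100a6, S100a11 was higher in monocyte-like (1444 CPM) and fibroblast-like cells (1557 CPM) than in Col3a1-high cells (807 CPM).

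S100a1 and S100a13 had lower peaks than the other 6 members. S100a1 (ENSMUSG00000044080, chromosome 3, 90511034 to 90514392, minus strand), best known from heart muscle, was between 22.2 CPM (1 UMI) in neutrophil-like cells and 106 CPM in Col3a1-high cells. S100a13 (ENSMUSG00000042312, chromosome 3, 90514435 to 90524581, plus strand), which aids the release of Fgf1 and Il1a from cells, was between 85.4 CPM in erythroid-like cells and 347 CPM (306 to 393) in T-like cells. By these positions the 2 genes start 43 bases apart on opposite strands. By the RefSeq starts they lie 105 bases apart, and their promoter windows share 204 bases. Fibroblast-like cells (337 CPM) did not differ from T-like cells in S100a13 beyond counting error.

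S100a6 and S100a4 UMIs were found in every group, the erythroid-like cells included. S100a6 was in 169 of 170 erythroid-like cells (99.4%, median 738 UMIs), the same share as in macrophage-like cells (99.4%, median 10078 UMIs). The name of the group rests on few cells, since 111 of the 170 held no UMI of the erythroid list, but S100a6 was also in all 59 cells that did (4308 CPM, median 823 UMIs). In the 111 cells S100a6 was at 9693 CPM (9113 to 10300). That interval held the level of mt-low Col3a1-low cells (9730 CPM) and lay above that of mt-high cells (8156 CPM). With every cell thinned to 500 UMIs the S100a6 share was 95.9% in erythroid-like and 34.2% in macrophage-like cells. For S100a4 the thinned shares were 63.5% in erythroid-like, 13.6% in macrophage-like and 54.7% in T-like cells, so at equal depth these host groups did not exceed the erythroid-like share. Rhox5, a homeobox gene not known from blood cells, had the same order as these S100a4 shares from erythroid-like to macrophage-like cells: it was at 367 CPM in erythroid-like, 46.3 CPM in T-like and 37.9 CPM in macrophage-like cells. S100 counts were then set against Rhox5 counts, a reference chosen after the values were seen. No profile of empty droplets was at hand, and the part of free RNA in the S100 values was not tested.

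Counted per Rhox5 UMI, S100a6 was lowest in Col3a1-low cells and highest in T-like cells among the groups with more than 10 Rhox5 UMIs. The 1847 Rhox5-high cells had 13.1 S100a6 UMIs per Rhox5 UMI, with 18.8 (18.5 to 19.2) in Col3a1-high, 11.7 in mt-high and 12.5 in mt-low Col3a1-low cells. The ratio thus differed within the lineage richest in both genes. Erythroid-like cells had 19.7 (15.5 to 25.2), above the Rhox5-high value as a whole and overlapping that of Col3a1-high cells. The 59 erythroid-like cells that held a UMI of the erythroid list had 14.1 (9.61 to 21.5), and the other 111 had 23.1 (17.2 to 31.9). Macrophage-like cells had 21.7 (19.9 to 23.7), above the Col3a1-high interval and overlapping the erythroid-like ones. Fibroblast-like cells had 28.2 (23.0 to 34.9), above the Col3a1-high interval and that of the 59 cells, and overlapping that of all erythroid-like cells. The neutrophil-like ratio of 22.2 (12.5 to 43.4) rested on 12 Rhox5 UMIs and overlapped both references. Monocyte-like (45.1, 36.3 to 56.8), DC-like (54.4, 34.2 to 92.2) and T-like cells (68.7, 49 to 99.4) lay above the Rhox5-high and erythroid-like intervals.

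S100a4 ratios overlapped those of Col3a1-high cells in several host groups, and S100a11 ratios did so in erythroid-like cells. S100a4 UMIs per Rhox5 UMI were 4.37 in all Rhox5-high cells, from 4.09 in mt-high Col3a1-low to 5.45 (5.34 to 5.57) in Col3a1-high cells. They were 5.07 (3.93 to 6.61) in erythroid-like, 5.50 in neutrophil-like, 5.65 in fibroblast-like and 5.35 in Cxcl9 state cells, and these 4 intervals overlapped that of Col3a1-high cells. Macrophage-like cells as a whole were above all of the Rhox5-high groups, at 7.38 (6.73 to 8.10). Monocyte-like cells had 22.6 S100a4 UMIs per Rhox5 UMI, DC-like cells 45.2 and T-like cells 50.5. S100a11 was at 0.914 per Rhox5 UMI in all Rhox5-high, 1.27 in Col3a1-high and 1.62 (1.2 to 2.2) in erythroid-like cells, with 0.893 (0.499 to 1.59) in the 59 cells of the erythroid list, against 9.004 in macrophage-like, 7.31 in fibroblast-like and 11.3 in neutrophil-like cells. S100a10 was at 1.95 in Rhox5-high, 2.49 in erythroid-like, 3.08 (1.57 to 6.50) in neutrophil-like and 8.44 in macrophage-like cells.

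**Figure D4:**
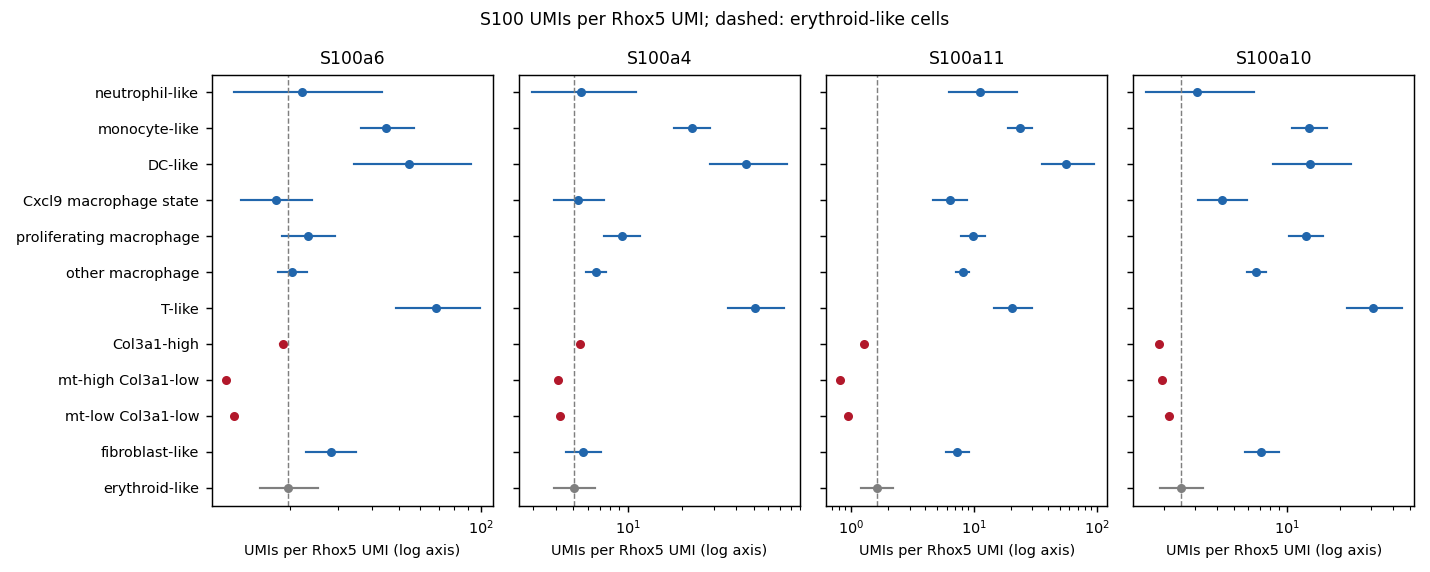
UMIs of S100a6, S100a4, S100a11 and S100a10 per Rhox5 UMI (log axis) in 12 cell groups with exact 95% intervals, and the erythroid-like value as a dashed line. For S100a6 the macrophage-like states and neutrophil-like cells lie near the dashed line at 19.7, and T-like cells lie at 68.7.

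Neutrophil-like against monocyte-like cells set the host myeloid types known for S100a8 and S100a9 side by side. S100a8 was 627-fold (442 to 919) and S100a9 2160-fold (1281 to 3965) higher in neutrophil-like cells. S100a6 was 2.16-fold (1.90 to 2.44) and S100a11 2.08-fold (1.73 to 2.47) higher. S100a4 (1.07-fold) and S100a10 (1.02-fold) were level between the groups in the main run, and S100a13, with 4 neutrophil-like UMIs, was at 0.521-fold (0.141 to 1.35). A gene was counted past 2-fold when at least 5 UMIs were expected in the smaller group, which 7 of the 8 members met and S100a1 did not. Of the 7, 4 were higher and 0 lower, beside 18.3% of 1270 genes higher and 12.4% lower. The median log2 ratio was 1.05 over the 7 members and 0.08 over all genes. Leaving out the 4 deep cells turned S100a11 to 0.661-fold. With UMIs at the erythroid-like ratio taken off, S100a6 was at 0.431-fold, S100a10 at 0.240-fold and S100a4 at 0.108-fold, with 2 members higher and 3 lower. These 3 values rest on 12 neutrophil-like Rhox5 UMIs. Their direction is not set, because the neutrophil-like ratios to Rhox5 overlapped the erythroid-like ones. Under the 16 alternatives that gave a value S100a8 ranged from 46.25-fold to 4108-fold and S100a9 from 45.4-fold to 15090-fold. Most monocyte-like UMIs of both genes came from 1 cell.

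Monocyte-like cells carried more S100 RNA than macrophage-like cells. S100a4 was 4.90-fold (4.63 to 5.18), S100a11 4.23-fold (4.01 to 4.45), S100a6 3.32-fold (3.20 to 3.45) and S100a10 2.52-fold (2.35 to 2.69) higher. S100a8 was 11.4-fold (6.74 to 19.5) and S100a9 46.9-fold (13.1 to 255) higher, on 33 and 14 UMIs. S100a13 (1.44-fold) and S100a1 (0.817-fold) stayed within 2-fold. Of 8 members 6 were higher and 0 lower, beside 2.81% of 9490 genes higher and 7.79% lower. The median log2 ratio was 1.91 over the 8 members, S100a8 and S100a9 included, and -0.06 over all genes. S100a4, S100a6, S100a10 and S100a11 stayed past 2-fold under the 16 alternatives that gave a value. Taking off UMIs at the erythroid-like ratio removed 68.7% of the macrophage-like S100a4 level and 90.6% of the S100a6 level. S100a4 was then at 12.1-fold and S100a6 at 19.9-fold. The size of the S100a6 value is not set, because the macrophage-like ratio to Rhox5 overlapped the erythroid-like one. For S100a4 the macrophage-like ratio, 7.38 (6.73 to 8.10), lay just above that of all erythroid-like cells, 5.07 (3.93 to 6.61). It overlapped that of the 111 cells without a UMI of the erythroid list, 5.38 (3.90 to 7.57). The size of the S100a4 value is thus not set either. Without the cell richest in S100a8 its ratio was 3.13, and S100a9 was then too low to compare.

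T-like cells exceeded macrophage-like cells in 5 members and were lower in S100a1. S100a4 was 8.36-fold (7.89 to 8.85) higher, S100a10 4.44-fold (4.15 to 4.75), S100a6 3.86-fold (3.69 to 4.04), S100a13 2.93-fold and S100a11 2.78-fold. S100a1 was at 0.435-fold (0.283 to 0.640) of the macrophage-like level. Of the 6 members with enough UMIs 5 were higher and 1 lower, beside 14.3% of 8625 genes higher and 16.3% lower. On the log2 scale the median ratio was 1.75 over the members and 0.12 over all genes. The 5 higher members kept their side of 2-fold under 16 alternatives and S100a1 under 15. With UMIs at the erythroid-like ratio taken off, S100a4 was 24.0-fold higher. S100a6 was then at 29.3-fold over a macrophage-like remainder of 77.5 CPM. The size of the S100a6 value is not set, since its macrophage-like ratio to Rhox5 overlapped the erythroid-like one. The size of the S100a4 value is not set either. Its macrophage-like ratio overlapped that of the 111 erythroid-like cells without a UMI of the erythroid list.

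Col3a1-high and Col3a1-low Rhox5-high cells differed little in S100 genes. S100a13 was 2.06-fold (1.98 to 2.15) higher in Col3a1-high cells. S100a1 (1.49-fold), S100a6 (1.43-fold), S100a11 (1.37-fold) and S100a4 (1.19-fold) were above 1, and S100a10 was at 0.856-fold. S100a8, on 7 and 18 UMIs, was at 1.49-fold (0.527 to 3.74) and lay below 1 under 4 of 8 alternatives. Of the 7 members with enough UMIs 1 was higher and 0 lower, beside 11.5% of 12826 genes higher and 2.79% lower, so the share of members was near the background. On the log2 scale the median ratio was 0.52 over the members and 0.20 over all genes. S100a13 fell below 2-fold under 4 of 15 alternatives, with 1.69-fold as its lowest value.

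The mt-high Col3a1-low cells had slightly lower S100 levels than the mt-low cells. S100a1 was at 0.640-fold, S100a11 at 0.769-fold and S100a13 at 0.809-fold of the mt-low level. S100a10 (0.824-fold), S100a6 (0.838-fold) and S100a4 (0.877-fold) lay closer to 1, and S100a10 lay above 1 under 4 of 13 alternatives. Of the 6 members with enough UMIs 0 were higher and 0 lower, beside 17.1% of 11676 genes higher and 0.642% lower. On the log2 scale the median ratio was -0.29 over the members and 0.37 over all genes, so the S100 genes sat below the typical gene in mt-high cells. The alternatives that cluster or gate again divided the Col3a1-low cells anew. With no mitochondrial limit the 6 members were all past 2-fold higher in the first group, S100a6 at 3.09-fold, but there the median mitochondrial share was 2.39% in the first and 32.6% in the second group, the opposite order. With marker gates the shares were 2.12% and 1.89%. With cells below 1% mitochondrial UMIs left out S100a6 was at 0.986-fold. The part of mitochondrial share in these ratios was not tested further.

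Fibroblast-like cells were past 2-fold of Col3a1-low cells in 3 S100 genes, too few to set the share of members apart from the background. S100a13 was 3.23-fold (2.73 to 3.80) and S100a11 2.63-fold (2.44 to 2.84) higher in fibroblast-like cells. S100a4, often used as a fibroblast marker, was at 0.411-fold (0.377 to 0.448). S100a10 (1.09-fold), S100a1 (0.904-fold) and S100a6 (0.715-fold) were within 2-fold. Of the 6 members with enough UMIs 2 were higher and 1 lower, beside 21.3% of 7474 genes higher and 9.66% lower. The median log2 ratio was -0.01 over the members and 0.08 over all genes. At Leiden resolution 0.3 S100a11 was at 0.653-fold and S100a13 at 0.754-fold. There the Rhox5-high cells were not divided, so all of them stood in for Col3a1-low cells. With marker gates S100a4 was at 0.843-fold.

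**Figure D5:**
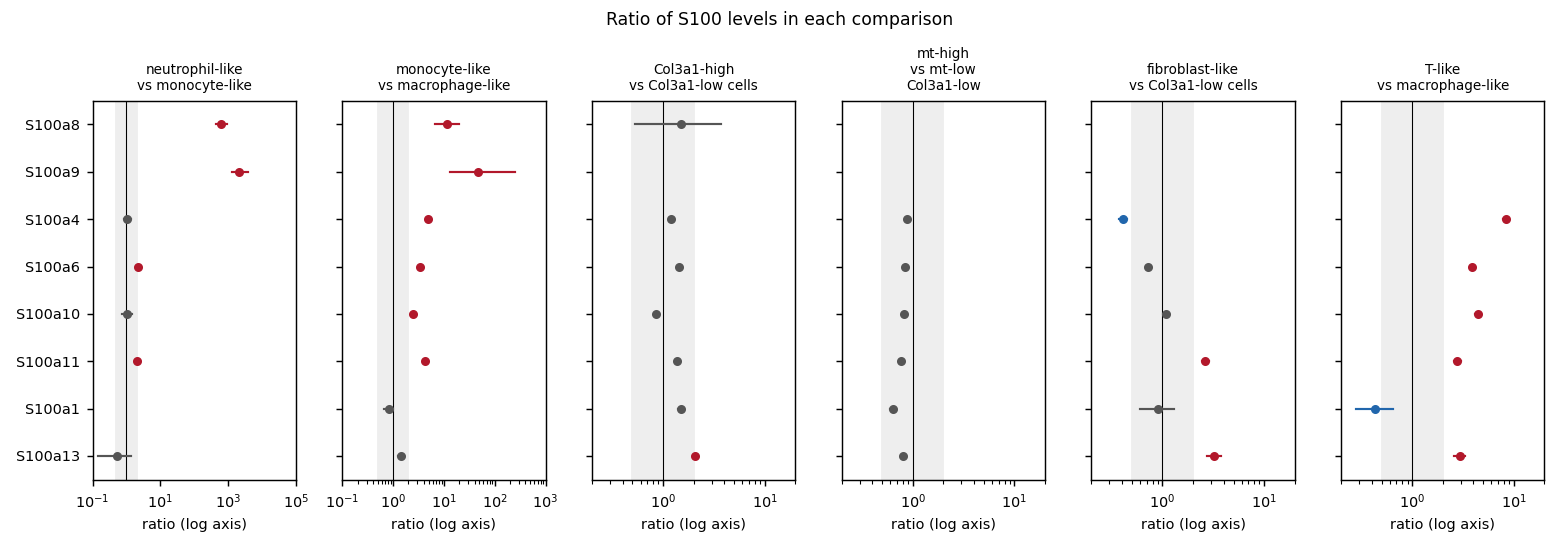
Ratio of each S100 gene (log axis, exact 95% intervals) in 6 comparisons, with the range from 0.5 to 2 shaded, red past it upward and blue past it downward. Monocyte-like against macrophage-like cells have 6 of 8 genes past 2-fold, and mt-high against mt-low cells have 0 of 6.

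The proteins that S100 proteins bind, and their receptors, formed a fixed list of 16 genes. Anxa2, the partner of S100a10, was higher in T-like than macrophage-like cells (2.60-fold) and in neutrophil-like than monocyte-like cells (2.18-fold). Anxa1, the partner of S100a11, was 4.01-fold higher in neutrophil-like than monocyte-like cells. In that comparison 4 of 7 partner genes were higher, Ahnak and Il1a besides, and 0 lower, beside 18.3% of all genes higher and 12.4% lower. Rhox5 (266 against 60.7 CPM) and Col3a1 (688 against 157 CPM) were higher in neutrophil-like cells as well. The part of RNA from Rhox5-high cells in the partner ratios was not tested. From macrophage-like to monocyte-like cells, where 6 S100 genes were higher, 0 of 13 partner genes were higher and 1, Cd36, was lower (0.304-fold), beside 2.81% and 7.79% of all genes.

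The receptors of calprotectin rested on few UMIs in neutrophil-like cells. Ager was at 367 CPM (7 UMIs) in lung epithelium-like cells, 66.6 CPM (3 UMIs, 13.7 to 195) in neutrophil-like and 0.731 CPM (1 UMI) in monocyte-like cells. Tlr4 was at 22.1 CPM in macrophage-like cells and at 22.2 CPM (1 UMI, 0.562 to 124) in neutrophil-like cells. T-like cells held 0.0617 (1 UMI, 0.0016 to 0.346) of the macrophage-like level. Of 12 partner genes 4 were higher in T-like cells, among them Anxa6 (5.59-fold) and Cd69 (4.30-fold). Lower were 3, Tlr4, Ly96 (0.271-fold) and Cd36, beside 14.3% of all genes higher and 16.3% lower. Cd36 had 0 T-like UMIs and was 5.30-fold lower with 3 counts in place of 0, with an interval that began at 4.28-fold. Between Col3a1-high and Col3a1-low cells 0 of 12 partner genes passed 2-fold, beside 11.5% of all genes higher and 2.79% lower. In mt-high against mt-low cells 1 of 10 did, Myh9, the myosin that S100a4 binds, at 2.83-fold, beside 17.1% of all genes higher. Fibroblast-like cells had Anxa6 (7.44-fold) and Ahnak (2.10-fold) higher and Cacybp, the calcyclin-binding protein (0.401-fold), and Ly96 (0.413-fold) lower, of 9 tested, beside 21.3% and 9.66% of all genes.

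The other S100 genes were mostly silent. Of 10 further family genes 9 were in the table. S100a16 was at 337 CPM in fibroblast-like, 190 CPM in endothelial-like, 17.3 CPM in Col3a1-high and 1.97 CPM in Col3a1-low cells. S100a3 reached 5.17 CPM in Rhox5-high cells. In Col3a1-high against Col3a1-low cells 3 of 6 were higher (S100a7a, S100a14 and S100a16) and 1 lower (S100a2), beside 11.5% and 2.79% of all genes, and the first 2 of these rested on levels below 1.5 CPM.

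Across the 15 groups of at least 20 cells, the levels of S100a8 and S100a9 were the most alike of any member pair (Pearson r 0.994 on log2 CPM, 6811 genes ranked). Slpi (0.945) and Kdm4a (0.944) came next for S100a8, and Kdm4a (0.952) for S100a9. S100a10 was most like Anxa2 (0.890), the gene of its protein partner, followed by Ndufa4 (0.888). S100a4 was nearest to Rps27a (0.900) and to S100a6 (0.892), and S100a6 to Eef1g (0.929) and Gas5 (0.908). S100a11 was nearest to Oxa1l (0.880), S100a13 to Dad1 (0.859) and S100a1 to 0610012G03Rik (0.827). The 15 points share 1 library and differ in depth, so these values describe the pattern only.

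Within the Rhox5-high lineage the S100 genes were partly linked from cell to cell. Spearman rho over 1847 cells was 0.565 for S100a6 with S100a11, 0.421 for the facing genes S100a1 and S100a13, and 0.310 for S100a4 with S100a6. S100a6 and S100a10, both abundant, had a rho of 0.042 over all these cells and 0.217 within Col3a1-high cells, against -0.026 in mt-high and 0.033 in mt-low Col3a1-low cells. For S100a6 with S100a11 the same 3 groups gave 0.687, 0.443 and 0.389. The cells share 1 library and their depths differ, so the values are a description.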

How the data were processed

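The counts that the authors deposited, UMI counts per gene and cell from Cell Ranger (5.0.1 per the file header, while the published methods name version 3), were used for the 1 library of 5 pooled tumors. Cells that had 200 genes or more and mitochondrial UMIs of 20% or less passed, and doublets were removed at 0.8% per 1000 cells. Counts per 10000 were log-transformed, and 2000 variable genes without S100 genes, 30 principal components, 20 nearest neighbors and Leiden clustering (resolution 0.5, then 0.8 for host pools and 1.0 for T-like cells) gave the groups, with leidenalg 0.10.2 on igraph 0.11.9, under Python 3.11.15 with sklearn 1.9.0, numpy 2.4.6, pandas 2.3.3, scipy 1.17.1 and, for plots, matplotlib 3.10.9. The counting method was tested on simulated data. Levels are pooled CPM with exact Poisson intervals. Shares have exact Clopper-Pearson intervals, and ratios have exact binomial intervals. The limit for 0 UMIs is 3 counts. Of the 24 alternatives tried, 17 were planned and 7 were chosen after seeing the data.

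Named genes are the 8 members, 10 other S100 genes, 16 partners and receptors, the marker genes and, per member, the 3 genes with the most similar levels, among genes with at least 100 UMIs and 50 CPM in 1 group. The members and lists were chosen with earlier results of these data known. Chosen after their values were seen were the second clustering round, the naming thresholds, the marker gates, the split of neutrophil-like cells (1500 UMIs, 10 marker UMIs, Ngp), Rhox5 and erythroid-like cells as references, the depth of 500 UMIs, the TATAAA window, the 20 nearest neighbors and the genes Mcpt1, Mcpt2 and Saa3. Several groupings were viewed before this one was kept. Of 7 planned comparisons 6 are reported.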

Additional observations from a re-analysis of the deposited data

How the results depend on the processing

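Of the counts of members past 2-fold, 94 of 111 values under the alternatives were within 1.5 times the main count, and monocyte-like against macrophage-like cells kept a like count under all 20 alternatives that gave a value. The other 17 follow. The cause was not tested, except for the fold limits and the missing minimum of UMIs, which set the count by construction.

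Neutrophil-like against monocyte-like cells had 4 members past 2-fold, and 2 with 3000 variable genes, with marker gates, with the mean over cells, with cells thinned to 500 UMIs and at 3-fold. Col3a1-high against Col3a1-low cells had 1, and 0 with at least 500 genes, with marker gates, with cells thinned to 500 UMIs and at 3-fold. The comparison of the groups planned as cycling and non-cycling (mt-high and mt-low in the main run) had 0, and 6 with no mitochondrial limit, where the mitochondrial shares were in the opposite order (2.39% and 32.6%), 1 at resolution 1.0, 2 with cells thinned to 500 UMIs and 1 at 1.5-fold. Fibroblast-like against Col3a1-low cells had 3, and 1 at 3-fold and 5 with no minimum of UMIs. The latter adds S100a8 and S100a9, which had 0 fibroblast-like UMIs and pass only because 3 counts stand in for 0. The count was also 5 with UMIs at the erythroid-like ratio taken off. That was done in host groups only and so lowers the fibroblast-like side by construction. T-like against macrophage-like cells had 6, and 3 at 3-fold.

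These counts add members higher and lower, and counted by direction 28 of 222 values moved. Fibroblast-like cells had 2 higher and 1 lower, and 0 higher and 4 lower at resolution 0.3, where undivided Rhox5-high cells stood in for Col3a1-low cells. Neutrophil-like cells had 4 higher and 0 lower. With UMIs at the erythroid-like ratio taken off they had 2 higher and 3 lower, where the 3 rest on 12 neutrophil-like Rhox5 UMIs. The cause was not tested.

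Of 553 single ratios under alternatives, 276 stayed within their interval, 272 moved and 5 reversed, where reversed means that a member past 2-fold in the main run fell on the other side of 1. Members within 2-fold crossed 1 as well, most often S100a10, S100a4 and S100a8: S100a10 did so under 8 of 15 alternatives in neutrophil-like against monocyte-like cells, 6 of 11 in fibroblast-like cells and 4 of 13 between the parts of Col3a1-low cells, S100a4 under 4 of 16 in neutrophil-like cells and S100a8 under 4 of 8 in Col3a1-high cells. S100a11 in fibroblast-like cells was 0.653 and S100a13 0.754 at resolution 0.3, there against undivided Rhox5-high cells. In neutrophil-like cells S100a11 was 0.720 with marker gates and 0.661 without the 4 deep cells. S100a6 was 0.431 with UMIs at the erythroid-like ratio taken off, a value whose direction is not set. It rests on 12 Rhox5 UMIs and on the ratio of all 170 erythroid-like cells, 19.7. In the 59 cells with a UMI of the erythroid list that ratio was 14.1. The cause was not tested. Of 1568 levels, 885 stayed within their interval and 683 moved.

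Some settings formed no group and gave no value. Neutrophil-like cells were missing at a mitochondrial limit of 10% and with at least 500 genes. Fibroblast-like cells were missing with no mitochondrial limit, at least 500 genes, 3000 variable genes, resolution 1.0 and S100 genes among the variable genes. Col3a1-high cells were missing at resolution 0.3, and the Col3a1-low cells were not split at a 10% limit, at resolution 0.3 or with another seed. Alternatives on free RNA, 500 UMIs, subsets of cells and a mitochondrial minimum of 1% were chosen after seeing the data.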
